A study of Mus musculus with 26 samples.

Results

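The comparison was between livers of leptin-deficient mice that did and did not lose weight while assigned the same infusion of leptin into the brain ventricle. Its members were the 4 arrays titled as LEP-ICV, from mice that had lost weight, and the 4 titled as LEP-ICVN, from mice assigned that infusion without weight loss, 8 of the 26 arrays of the series. All 8 mice were ob/ob females, 15 weeks old at the start, that carry no functional leptin gene, and all were assigned 1.5 µg/d of leptin for 12 days. The 4 VEH-ICV mice, ob/ob females of the same age infused with vehicle by that route, stood beside them as a reference. The other 14 arrays (LEP-SQ and VEH-SQ ob/ob mice and lean B6 mice) were not compared here. All 26 arrays entered the normalization, the choice of probes tested and the estimate of spread. The term for array background rested on the 8 LEP-ICV and LEP-ICVN arrays, since each other group had arrays of only 1 background class. The 2 leptin groups were formed by weight outcome and not by assignment. The sources used here conflict on how many LEP-ICVN mice lacked proof of where the cannula lay, and which LEP-ICVN mice had leptin reach the brain is therefore unknown. Each array held liver RNA of a separate mouse, and the weights of single mice were not used here.

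Leptin is the hormone by which fat tissue signals energy stores to the hypothalamus, and mice without it overeat and accumulate liver fat. In liver the transcription factors SREBP-1c and SREBP-2 drive the genes of fatty acid and cholesterol synthesis, and insulin and feeding raise the first of these programmes. Lack of amino acids or stress in the endoplasmic reticulum raises another set of genes through the factor ATF4, and resident macrophages, the Kupffer cells, clear lipid and debris.

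The signal of undetected probes, a measure of array background, ran from 105.5 to 187.9 over the 8 arrays, and each group had 2 arrays on either side of the limit of 140 that separated low from high background. The nearest arrays to that limit were at 120.0 (mouse LEP_ICVN_1004) and 160.8 (mouse LEP_ICV_1019). Between 7679 and 11117 probes were detected per array. The first principal component of the 8 arrays held 55.8% of the variance, was positive on the 4 arrays with over 9000 detected probes and negative on the other 4, and for mice LEP_ICV_1014 and LEP_ICV_1019 this split did not go with background. The second component held 22.9% and placed the LEP-ICV mice between -44.9 and -0.6 and the LEP-ICVN mice between 20.6 and 36.7. Of 15 tested genes that define hepatocytes, 14 were detected on every array of either group, and their summed level was 276610 to 396527 in LEP-ICV and 335221 to 390819 in LEP-ICVN, so the label of the tissue held in both groups. The defining genes Fgb and Tat were detected on none of the 8 arrays.

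Of 7953 genes tested, 614 were higher and 393 lower in LEP-ICV than in LEP-ICVN at an adjusted p under 0.05, which is 7.72% and 4.94% of the genes. These calls came from limma over all 26 arrays with background class as a block. The 4 arrays of one group lay wholly above or below the 4 of the other for 484 of the called genes (287 higher and 197 lower). It did so for 7.88% of all genes, 4.61% with LEP-ICV higher and 3.27% with LEP-ICV lower. A test of whether the change differed between low- and high-background arrays called 0 genes (limma, adjusted p), with 2.53% of genes at an unadjusted p under 0.05. At least a 4-fold change was seen in 31 of the higher and 69 of the lower genes, and the median change over all genes was 0.03 on the log2 scale.

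The number of calls rested on the spread lent by the other groups. The median standard deviation between mice about background class means was 0.568 in LEP-ICV, and between 0.215 and 0.317 in the other groups. About the group mean it was 0.572 in LEP-ICV and 0.504 in LEP-ICVN. When only the 8 arrays entered the fit, 27 genes were higher and 33 lower (0.339% and 0.415%), and all 60 were also called over the 26 arrays. With the number of detected probes (under or over 9000) as the block in place of background, the 8 arrays gave 197 higher and 150 lower genes, and the 26 arrays 724 (9.10%) and 485 (6.10%). That block was chosen after the data had been seen. Without mouse LEP_ICVN_1001 the 26-array count was 600 and without mouse LEP_ICVN_1016 it was 626, and 457 of the called genes stayed called whichever mouse was left out. How many calls held on the 8 arrays alone is therefore given with the groups of genes. The counts of each group are to be read beside the shares over all genes. These were 7.72% called higher and 4.94% lower, and 4.61% and 3.27% without overlap. A named call that was lost when a single mouse was left out is given with the mice concerned or the number of such fits out of 8, for most with its value closest to 0.

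**Figure D1:**
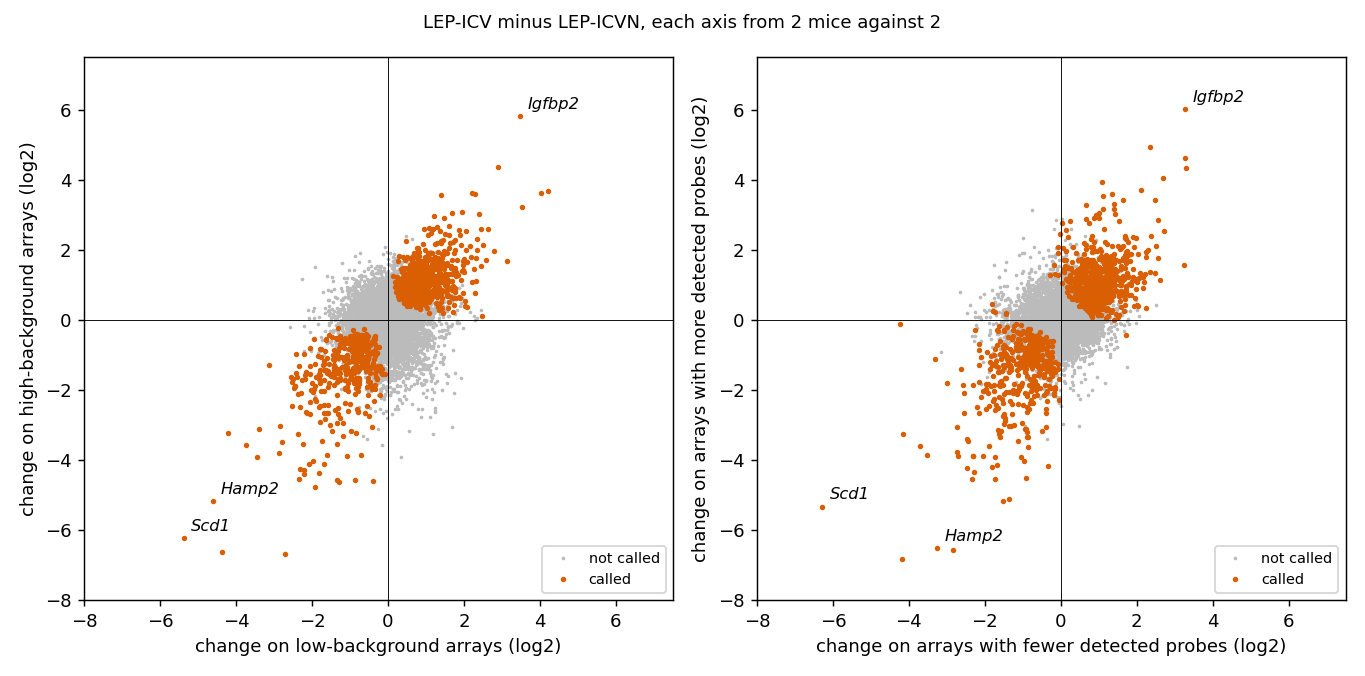
Each point is a gene, and each axis is the log2 change of LEP-ICV against LEP-ICVN over 2 mice of each group. The left panel sets low- against high-background arrays, the right panel arrays with fewer against arrays with more detected probes, and called genes are orange. Scd1, Hamp2 and Igfbp2 lie far out in the same direction on both axes of both panels.

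Scd1, the delta-9 desaturase that makes monounsaturated fatty acids and a target of SREBP-1c, showed the largest decrease of all called genes whose groups did not overlap. Its normalized log2 values were 10.46, 10.25, 8.47 and 8.44 in mice LEP_ICV_1003, LEP_ICV_1014, LEP_ICV_1017 and LEP_ICV_1019. They were 14.55, 15.77, 14.82 and 15.70 in mice LEP_ICVN_1001, LEP_ICVN_1004, LEP_ICVN_1008 and LEP_ICVN_1016. Every LEP-ICV mouse lay more than 4 log2 units below every LEP-ICVN mouse, and the VEH-ICV mean was 15.78 ± 0.08 (SD, n = 4). The log2 change was -5.80 (standard error (SE) 0.51, adjusted p = 1.5e-07), and it was also called on the 8 arrays alone (adjusted p = 4.4e-05). On 1 of the 8 arrays the Scd1 signal exceeded 90% of the highest signal of that array. Scd2, the desaturase paralog, was near the limit of detection, with a change of -0.46 (adjusted p = 0.36).

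Igfbp2, an insulin-like growth factor binding protein that hepatocytes secrete, was the gene with the largest increase. It stood at 12.72, 12.99, 13.64 and 12.59 in the LEP-ICV mice and at 8.08, 9.38, 6.51 and 9.36 in the LEP-ICVN mice, in the same order of mice, which is kept from here on. The LEP-ICV mice differed little among themselves, while the high-background mice LEP_ICVN_1001 and LEP_ICVN_1008 lay below the other two. The log2 change was 4.65 (SE 0.50, adjusted p = 3.6e-06, and 0.017 on the 8 arrays alone). Igfbp1, a binding protein that fasting raises, was called at 1.71 (SE 0.48, adjusted p = 0.020, and 0.13 on the 8 arrays), and it was lost in 4 of the 8 fits that left out a mouse (1.35 without LEP_ICV_1014), whereas Igfbp4 (0.07), Igfbp5 (-0.56) and Igfbp7 (0.51) were not called.

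Hamp2, one of the mouse hepcidin genes, fell with no change called in its paralog. Hamp2 was 11.75, 8.12, 9.20 and 10.80 in LEP-ICV and 15.13, 13.83, 15.23 and 15.24 in LEP-ICVN, with mouse LEP_ICVN_1004 apart from the other three. The log2 change was -4.89 (SE 0.62, adjusted p = 2.8e-05, and 0.037 on the 8 arrays alone). Hamp, the hepcidin that restrains iron export in mouse, stood at 15.29, 14.71, 13.87 and 14.77 against 13.26, 14.94, 14.05 and 15.13, and its change of 0.32 (SE 0.24, adjusted p = 0.44) left the groups overlapping. The difference between these paralogs was not tested. Of 16 tested genes of hepcidins and iron handling, 2 were higher and 2 lower. Hmox1, which breaks down heme, was higher by 1.68 (adjusted p = 0.026). The Hmox1 call was lost in 4 of 8 fits (1.26 without LEP_ICVN_1016). Slc40a1, which exports iron from cells, was higher by 0.98 (adjusted p = 0.0048). The transferrin receptor Tfr2 was lower by a log2 change of -1.02 (adjusted p = 0.0056).

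**Figure D2:**
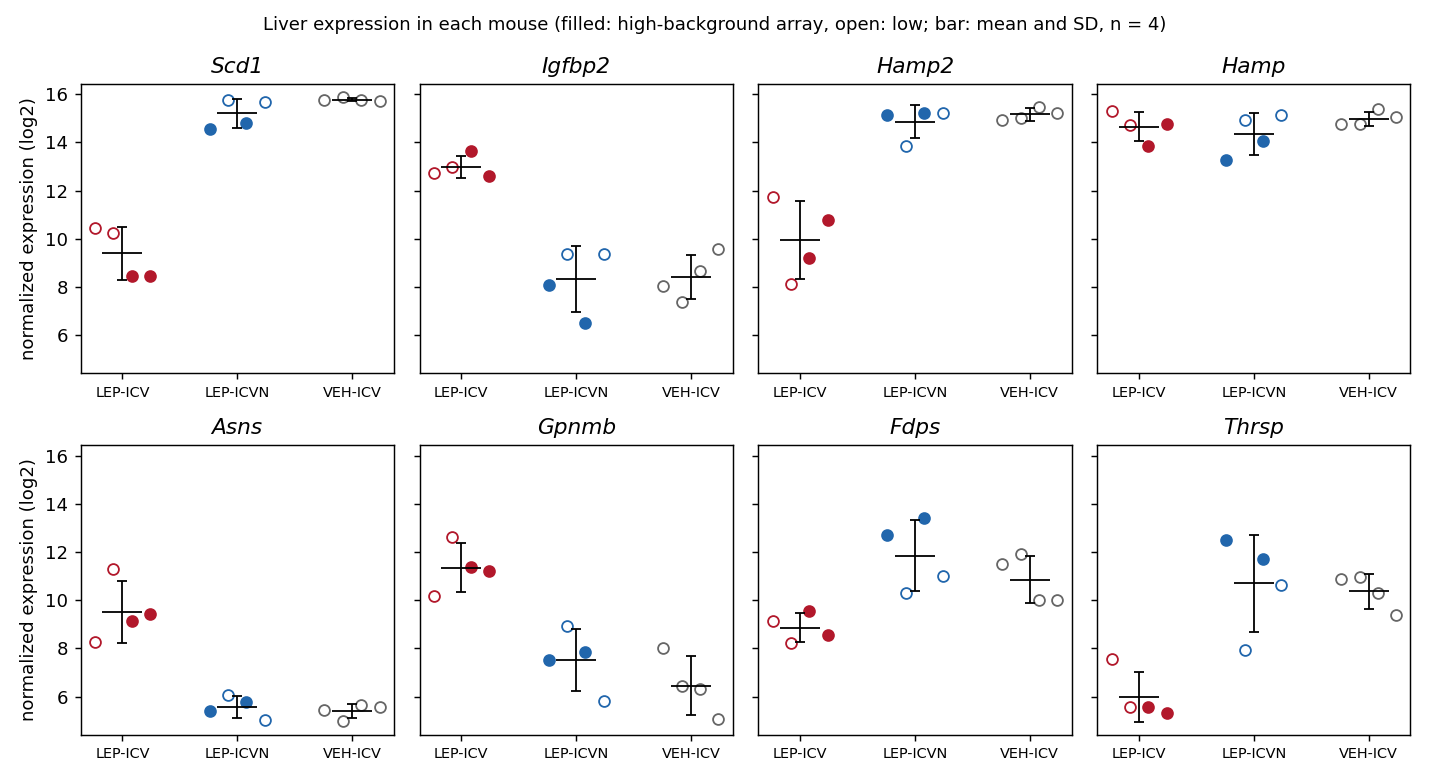
Normalized log2 expression of 8 genes in each LEP-ICV, LEP-ICVN and VEH-ICV mouse, where filled points are high-background arrays, open points low-background arrays, and bars the mean and SD of 4 mice. The LEP-ICV points lie apart from the LEP-ICVN points for every gene shown except Hamp, where they overlap, and Thrsp spans from 7.92 to 12.52 in LEP-ICVN.

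The genes with the largest changes among those without overlap held several at or near the limit of detection in one group. Lrtm1, a leucine-rich repeat membrane protein, was 6.94, 4.82, 4.90 and 5.22 in LEP-ICV and 12.24, 9.74, 11.15 and 10.77 in LEP-ICVN (log2 change -5.51, SE 0.61, adjusted p = 4.6e-06, and 0.016 on the 8 arrays). For a further 4 decreases the probe was not well above background on any LEP-ICV array, and a bound stands in for the fold, taken against the dimmest detected signal of each array or the probe's own where that was higher. Chrna4, a subunit of the nicotinic acetylcholine receptor, was at least 5.34-fold lower (adjusted p = 5.9e-05), the gene Gm4956 at least 8.74-fold (adjusted p = 7.5e-07), the phospholipase A2 gene Pla2g4f at least 6.66-fold (adjusted p = 1.3e-07) and Hao2, a peroxisomal hydroxyacid oxidase, at least 4.69-fold (adjusted p = 3.0e-05). All these calls held on the 8 arrays alone. Slc44a1, which carries choline into cells, had the smallest p of the comparison together with Pla2g4f, at 7.59, 7.41, 6.38 and 6.63 against 8.71, 9.28, 8.79 and 9.56 (log2 change -2.08, SE 0.17, adjusted p = 1.3e-07). It was picked out after its value had been seen.

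On the increasing side, Uap1l1, an enzyme related to nucleotide sugar synthesis, was higher by 2.95 (SE 0.39, adjusted p = 3.5e-05) and Rgs1, a regulator of G-protein signalling in leukocytes, by 2.42 (SE 0.46, adjusted p = 9.7e-04). Both held on the 8 arrays alone. Arhgef2, a guanine nucleotide exchange factor, was at 7.15, 8.19, 7.99 and 8.53 in LEP-ICV and not well above background on any LEP-ICVN array, so it was at least 2.97-fold higher (adjusted p = 8.7e-07). The fatty acid binding protein Fabp3 was at least 1.89-fold higher (adjusted p = 0.0012), and Fbp2, the muscle form of fructose bisphosphatase, at least 3.50-fold (adjusted p = 3.6e-04). Those of Fabp3 and Fbp2 did not hold on the 8 arrays (adjusted p = 0.17 and 0.12). In mouse LEP_ICV_1003, Fabp3 was at 5.15, and in mouse LEP_ICV_1014 at 9.39.

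Genes of cholesterol synthesis and uptake were lower together. Of 18 tested, 16 were called lower and 0 higher, the median log2 change was -2.24 (-2.19 with 2 genes at their bounds) against 0.03 over all genes, and 13 had no overlap between the groups. All 18 changes were negative. On the 8 arrays alone, 6 of the 16 held (Fdps, Lss, Msmo1, Nsdhl, Stard4 and Tm7sf2), and all 16 held there with detected-probe class as the block. Without mice LEP_ICV_1014 and LEP_ICV_1019, 14 were called.

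Fdps, which makes farnesyl diphosphate, was at 9.12, 8.21, 9.55 and 8.55 in LEP-ICV and 12.72, 10.28, 13.43 and 10.99 in LEP-ICVN (log2 change -3.00, SE 0.49, adjusted p = 2.3e-04). Mvd, the mevalonate diphosphate decarboxylase, was at 7.30, 5.97, 5.48 and 4.88 against 9.72, 7.96, 10.17 and 9.15 (log2 change -3.34, adjusted p = 1.7e-04). In both genes the low-background mice LEP_ICVN_1004 and LEP_ICVN_1016 lay below the high-background mice LEP_ICVN_1001 and LEP_ICVN_1008. Insig1, the membrane protein that retains the SREBPs and is itself their target, changed by -3.29 (adjusted p = 8.8e-04), Dhcr7, the last enzyme of one arm of the pathway, by -2.96 (adjusted p = 8.3e-04) and the sterol oxidase Msmo1 by -2.90 (adjusted p = 2.9e-05). Over the list the median was -1.52 on low-background and -2.65 on high-background arrays. Cyp51 was 5.10, 5.94, 7.29 and 4.81 against 10.55, 6.37, 10.75 and 5.48, so the groups differed chiefly on the high-background arrays (log2 change -2.50, adjusted p = 0.016), and it was called in 5 of the 8 fits that left out a mouse. Srebf2, which encodes SREBP-2, was not called (log2 change -0.64, adjusted p = 0.29).

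The promoters of these genes were searched for the letters TCACNCCAC, the core of a sterol regulatory element, on both strands of the 250 bases before the start site in RefSeq (build GRCm38.p6). Of 18 tested members 15 matched a promoter entry. The motif was in 1 of them, as against 1.22% of all 27025 genes with an entry and 1.26% of tested ones. That gene was Hmgcs1, the synthase that commits acetyl-CoA to the pathway, which was lower at 14.62, 13.38, 13.10 and 13.94 against 15.11, 15.29, 15.61 and 15.57 (log2 change -1.64, SE 0.29, adjusted p = 5.2e-04). Its site is shown with its surroundings, from chr13:119690168-119690268 on the plus strand, motif in capitals, as the member of the cholesterol list with such a match.
Hmgcs1: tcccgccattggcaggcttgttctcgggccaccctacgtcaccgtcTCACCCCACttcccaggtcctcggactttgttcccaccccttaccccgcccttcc

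**Figure D3:**
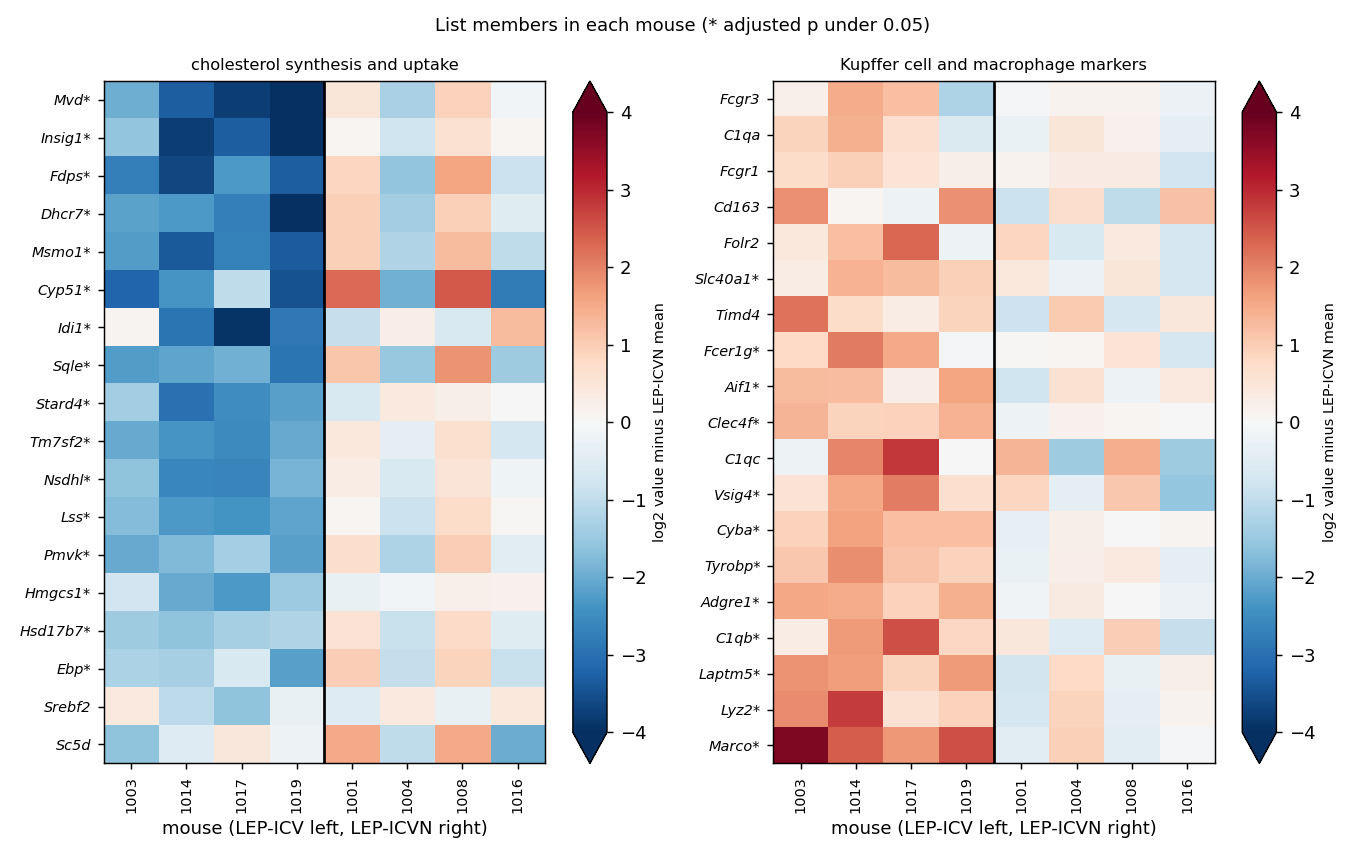
Each row is a gene and each column a mouse, and colour gives its log2 value minus the LEP-ICVN mean (blue lower, red higher, limits at -4 and 4). All 16 called cholesterol genes (left) are marked with a star and are blue in nearly every LEP-ICV column, and the macrophage markers (right) are mostly red there. Within LEP-ICVN, mice LEP_ICVN_1004 and LEP_ICVN_1016 are bluer than LEP_ICVN_1001 and LEP_ICVN_1008 for many cholesterol genes.

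Fatty acid synthesis was lower in part. Of 13 tested genes, 6 were called lower and 0 higher (median -1.22), of which 1 held on the 8 arrays alone and 5 with detected-probe class as the block there. That gene was Acss2, which makes acetyl-CoA from acetate, at 10.08, 9.51, 10.07 and 9.02 against 13.42, 11.28, 13.90 and 12.44 (log2 change -3.09, SE 0.37, adjusted p = 1.4e-05). Thrsp, a regulator of lipogenesis, was at 7.55, 5.55, 5.55 and 5.34 in LEP-ICV and at 12.52, 7.92, 11.73 and 10.62 in LEP-ICVN. mouse LEP_ICV_1003 and mouse LEP_ICVN_1004 thus came within 0.4 log2 units of each other, and the change was -4.70 (SE 0.79, adjusted p = 3.3e-04, and 0.062 on the 8 arrays).

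Srebf1, which encodes SREBP-1c, changed by -2.48 (SE 0.64, adjusted p = 0.012), and its mouse LEP_ICVN_1004 at 6.62 lay within the LEP-ICV range of 4.70 to 6.94. The Srebf1 call was lost without LEP_ICV_1019 (-1.75) and without LEP_ICVN_1001. Acly, which supplies cytosolic acetyl-CoA, changed by -1.52 (adjusted p = 0.0032) and the citrate carrier Slc25a1 by -1.35 (adjusted p = 1.6e-04). Fasn was detected on no LEP-ICV array and on 2 LEP-ICVN arrays and was not called (adjusted p = 0.20). Acaca (-0.30, adjusted p = 0.44) and the carbohydrate-responsive factor Mlxipl (0.28, adjusted p = 0.60) were not called either. The list's median was -0.44 on low-background arrays and -2.07 on high-background arrays. Among 12 tested genes of desaturation and elongation, 4 were lower and 0 higher, and Pnpla3 was not among the tested genes. The 4 were Scd1, the elongase Elovl6 (-2.03, adjusted p = 0.0063), the reductase Tecr (-1.08, adjusted p = 1.4e-04) and Elovl5 (-0.59, adjusted p = 0.046). Elovl5 lost its call in 6 of 8 fits that left out a mouse (-0.44 without LEP_ICV_1019), and on the 8 arrays alone only Scd1 of the 4 held.

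Of 26 genes of fatty acid oxidation and ketogenesis, 3 were higher and 0 lower (median 0.20), and none of the 3 held on the 8 arrays alone. They were Hadhb of the mitochondrial trifunctional protein (1.10, adjusted p = 0.034), the ketone body enzyme Bdh1 (1.07, adjusted p = 0.0037) and the short-chain dehydrogenase Acads (0.90, adjusted p = 0.025). Hadhb lost its call in 5 of 8 fits that left out a mouse (0.74 without LEP_ICV_1014) and Acads in 3 (0.54 without LEP_ICV_1019). The thioesterase gene Acot1 stood at 11.01, 13.06, 13.29 and 13.72 in LEP-ICV against 11.93, 11.39, 11.65 and 10.20 and was not called (log2 change 1.48, adjusted p = 0.095), with mouse LEP_ICV_1003 inside the LEP-ICVN range. Pdk4, a kinase that fasting raises, ran from 7.57 to 12.09 within LEP-ICV (log2 change 1.11, adjusted p = 0.31).

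Of 16 lipid droplet and PPARgamma target genes, 2 were higher and 2 lower, against 7.72% higher and 4.94% lower over all genes. Cidea, which fuses lipid droplets, was lower by a log2 change of -1.91 (adjusted p = 0.014), and Fitm1, which helps form them, by -1.68 (adjusted p = 0.0015, and 0.037 on the 8 arrays). Hilpda, an inhibitor of the lipase ATGL, was higher at 1.40 (adjusted p = 0.0034) and the coat protein Plin3 at 0.71 (adjusted p = 0.029). A further tested probe of Hilpda went the other way. Without LEP_ICV_1014 the Hilpda change of 1.40 fell to 0.92. Cidea was not called without LEP_ICVN_1001, and Plin3 not in 5 of 8 fits that left out a mouse (0.46 without LEP_ICV_1019). Of the 4 calls, that of Fitm1 held on the 8 arrays alone. Plin2, the main droplet coat of hepatocytes, ranged from 5.41 to 11.71 within LEP-ICV and changed by -0.23 (adjusted p = 0.91), and Pparg changed by -0.03 (adjusted p = 0.94).

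Of 15 genes of fasting hormones and gluconeogenesis, 2 were higher and 2 lower, and 0 held on the 8 arrays alone. Fgf21, a hormone that the fasting liver secretes, was at 11.66, 13.46, 11.90 and 13.28 in LEP-ICV and at 8.42, 11.19, 9.53 and 9.53 in LEP-ICVN, without overlap (log2 change 2.91, SE 0.56, adjusted p = 0.0011, and 0.069 on the 8 arrays). Igfbp1, given above, was the other higher gene. Ppargc1a, a coactivator of gluconeogenic genes, was lower (-1.27, adjusted p = 0.047), as was Gckr, the regulator of glucokinase (-1.13, adjusted p = 0.041). Ppargc1a lost its call in 7 of 8 fits that left out a mouse (-1.07 without LEP_ICVN_1016) and Gckr in 5 (-0.70 without LEP_ICV_1019). The gluconeogenic enzymes were not called, with Pck1 at -1.08 (adjusted p = 0.13) and G6pc at -0.03 (adjusted p = 0.97).

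Targets of the integrated stress response included some of the largest increases. Of 22 tested genes, 7 were higher and 0 lower (median 0.55), and 2 of the 7, Asns and Nupr1, held on the 8 arrays alone. Asns, asparagine synthetase, was at 8.25, 11.31, 9.12 and 9.43 in LEP-ICV and not well above background on any LEP-ICVN array, so that it was at least 8.78-fold higher (adjusted p = 1.4e-05). Nupr1, a stress-induced chromatin protein, was at 9.86, 11.59, 11.60 and 10.48 against 6.24, 8.21, 7.09 and 7.43 (log2 change 3.64, SE 0.51, adjusted p = 5.9e-05). Psat1, of serine synthesis, was at 5.35, 9.33, 8.96 and 6.85 in LEP-ICV, a range of about 4 log2 units, and at least 2.34-fold higher (adjusted p = 0.0042, and 0.21 on the 8 arrays), with its call kept whichever mouse was left out.

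Smaller increases were called for Gars, the glycyl-tRNA synthetase (0.95, adjusted p = 5.8e-04), and for Slc3a2 (0.97, adjusted p = 0.040) and Slc7a5 (0.67, adjusted p = 0.023), which form one amino acid transporter. Slc3a2 lost its call in 5 of 8 fits that left out a mouse (0.58 without LEP_ICV_1019) and Slc7a5 in 4 (0.46 without LEP_ICV_1019). Chac1, which degrades glutathione, had no overlap between groups, at 10.11, 10.75, 10.02 and 10.68 against 8.44, 9.06, 8.80 and 9.58, yet was not called (log2 change 1.42, adjusted p = 0.0502). Ddit3 (0.97, adjusted p = 0.056) and Atf4 itself (-0.23, adjusted p = 0.86) were not called. Vldlr, a lipoprotein receptor, separated the groups downward, at 8.51, 9.82, 9.74 and 9.58 against 9.94, 10.42, 9.99 and 10.26, and was not called (log2 change -0.74, adjusted p = 0.22). Cth, which makes cysteine, had the lowest change of the list at -1.99 (adjusted p = 0.051, and 0.029 with detected-probe class as the block) and was detected on 1 LEP-ICV and 2 LEP-ICVN arrays. Vldlr and Cth were picked out after their values had been seen. The endoplasmic reticulum chaperone Hspa5 was not called either (0.19, adjusted p = 0.79). Of 16 genes of that class 2 were higher and 0 lower, among them Hsp90b1 (0.91, adjusted p = 0.0020), and Xbp1, a transcription factor of the unfolded protein response, rose by 0.57 (adjusted p = 0.010). Of 14 cytosolic heat shock chaperones 3 were higher and 0 lower, with Hsph1, Hspb1 at 1.96 (SE 0.34, adjusted p = 5.2e-04) and the chaperonin subunit Cct4 at 0.83 (adjusted p = 0.0052). Over all genes 7.72% were called higher, and none of these calls on chaperones held on the 8 arrays alone. Without LEP_ICVN_1016 Xbp1 was not called, and Hsph1 was not in 5 of 8 fits that left out a mouse (0.54 without LEP_ICV_1019).

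The same promoter search was run for TGATGNAA, the C/EBP and ATF response element type that ATF4 binds, on both strands. Of 22 tested members 18 matched an entry and 6 held the letters, as against 3.91% of all genes with an entry. Of the 6531 tested genes with an entry, 2.54% held the letters. The list was made of targets of this response, so its share is no test of that. Of the 5 called members with an entry, 3 held the letters (Asns, Nupr1 and Gars), and so did Chac1, Aars and Vldlr, which were not called. The sites of the 3 called genes are shown in the direction of the gene with the motif in capitals. In Nupr1 and Gars it lies on the opposite strand and is therefore printed as its reverse complement. Asns is from chr6:7693210-7693278 and Nupr1 from chr7:126625527-126625626, both on the minus strand, and Gars from chr6:55037925-55038000 on the plus strand.
Asns: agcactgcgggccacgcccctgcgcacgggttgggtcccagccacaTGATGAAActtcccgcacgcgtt
Nupr1: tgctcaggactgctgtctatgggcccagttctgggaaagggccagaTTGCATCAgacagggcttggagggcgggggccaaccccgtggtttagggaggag
Gars: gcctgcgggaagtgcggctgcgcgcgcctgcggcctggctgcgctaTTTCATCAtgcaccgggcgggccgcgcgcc

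Of 19 tested markers of Kupffer cells and macrophages, 12 were higher and 0 lower, all 19 changes were positive, and the median was 1.14. Only 1 of the 12, Marco, held on the 8 arrays alone, and 10 were called there with detected-probe class as the block. The summed level of the list was 41159 to 58532 in the LEP-ICV mice, 16482 to 24509 in the LEP-ICVN mice and 16775 to 22276 in the VEH-ICV mice, so the lowest LEP-ICV mouse lay above the highest of the other two groups. The markers Cd5l and Cybb were detected on no array of the 8. In whole liver, more macrophages and more RNA of these genes per macrophage cannot be told apart.

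Marco, a scavenger receptor, was at 9.34, 8.04, 7.36 and 8.19 in LEP-ICV and at least 3.59-fold higher (adjusted p = 1.3e-04). Laptm5, a lysosomal protein of leukocytes, was at 13.64, 13.51, 12.72 and 13.53 against 11.11, 12.63, 11.54 and 12.06 (log2 change 1.52, SE 0.20, adjusted p = 3.4e-05). Clec4f, a lectin of Kupffer cells, was at 11.84, 11.39, 11.40 and 11.89 against 10.28, 10.65, 10.56 and 10.46 (log2 change 1.14, SE 0.22, adjusted p = 0.0012). Adgre1, which encodes a surface antigen of mouse macrophages, changed by 1.34 (adjusted p = 0.0016), without overlap, and the complement gene C1qb by 1.35 (adjusted p = 0.010), while C1qa (0.60, adjusted p = 0.40) and C1qc (adjusted p = 0.15) were not called. C1qc stood at 9.10 and 9.20 on the high-background and at 6.33 and 6.33 on the low-background LEP-ICVN arrays. C1qb lost its call without LEP_ICV_1014 (0.99) and without LEP_ICVN_1016.

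Of 20 tested genes of lipid-laden macrophages, 11 were higher and 0 lower (median 1.31), and 5 held on the 8 arrays alone (Mmp12, Trem2, Lgals3, Clec7a and Cd44). Gpnmb, a glycoprotein of such cells, was at 10.16, 12.64, 11.40 and 11.20 against 7.50, 8.92, 7.87 and 5.82 (log2 change 3.82, SE 0.67, adjusted p = 5.0e-04, and 0.056 on the 8 arrays). Mmp12, the macrophage elastase, was at 9.93, 11.15, 9.98 and 9.48 against 6.56, 8.01, 6.48 and 6.02 (log2 change 3.37, SE 0.52, adjusted p = 1.6e-04, and 0.032 on the 8 arrays). Trem2, a lipid-sensing receptor, changed by 2.39 (adjusted p = 3.7e-04), the galectin Lgals3 by 2.29 (adjusted p = 2.9e-05) and the tetraspanin Cd63 by 2.14 (adjusted p = 3.3e-04). The cathepsins Ctsb (0.20, adjusted p = 0.29) and Ctsd (0.00, adjusted p = 1.0) were not called. The list's median was 1.48 on low- and 0.84 on high-background arrays.

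Of 6 class II antigen presentation genes, 4 were higher and 0 lower (median 0.99), with H2-Ab1 at 1.29 (adjusted p = 0.025), H2-DMa at 1.26, H2-Aa at 0.98 and H2-DMb1 at 0.96. None of the 4 held on the 8 arrays alone or without mice LEP_ICV_1014 and LEP_ICV_1019, and each was lost in 3 to 5 of the 8 fits that left out a mouse, among them those without LEP_ICV_1014, LEP_ICVN_1001 and LEP_ICVN_1016 (H2-DMa 0.78 without the last). Of 4 neutrophil genes and of 7 T, B and NK cell genes tested, 0 were called, and their medians were 0.81 and 0.43 (0.03 for the latter with 4 genes at their bounds). Of 14 endothelial genes, Clec4g, a lectin of sinusoidal cells (0.85, adjusted p = 7.1e-04), and Egfl7 (0.65, adjusted p = 0.017, with a further probe opposite) were higher and the clotting factor carrier Vwf (-0.90, adjusted p = 0.012) was lower. Of 18 stellate cell and collagen genes 1 was higher, the protease inhibitor Timp1, by at least 2.10-fold (adjusted p = 0.0016). Of the 15 hepatocyte genes, Ahsg was higher (0.50, adjusted p = 0.041) and Alb (-1.43, adjusted p = 0.019) and Cps1 (-2.05, adjusted p = 0.019) lower, and the sums given above overlapped between groups. Cps1 lost its call in 5 of 8 fits that left out a mouse (-1.03 without LEP_ICV_1019), Alb in 3 (-0.82 without LEP_ICV_1014) and Ahsg in 5 (0.38 without LEP_ICVN_1001), Egfl7 lost its call without LEP_ICVN_1001, and without a block for background 0 hepatocyte genes were called. On the 8 arrays alone 0 of the endothelial, stellate and hepatocyte calls held. The part of cell composition in the changes of single genes was not tested.

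Of 34 lysosomal genes, 8 were higher and 0 lower (median 0.26), among them the peptidases Dpp7 (1.29, adjusted p = 5.9e-05) and Prcp (1.17, adjusted p = 1.5e-04) and the hexosaminidase subunit Hexa (1.09, adjusted p = 0.0015). Of the 8 called, 5 had no overlap between groups, and of all 34 tested, 8 lay higher in LEP-ICV without overlap. Over all genes 7.72% were called higher, and 4.61% lay higher in LEP-ICV without overlap. On the 8 arrays alone 0 held, and 5 were called there with detected-probe class as the block. Of 20 interferon-induced genes, 5 were higher and 0 lower (median 0.36). Usp18, which restrains interferon signalling, was at 10.36, 10.82, 10.59 and 10.61 against 8.52, 9.18, 8.71 and 8.50 (log2 change 1.87, SE 0.28, adjusted p = 1.2e-04, and 0.029 on the 8 arrays). Saa3, an acute-phase apolipoprotein made also by macrophages, was the 1 called gene of 18 acute-phase proteins (1.91, adjusted p = 0.0048), and its paralogs Saa1 (0.40, adjusted p = 0.82) and Saa2 (0.50, adjusted p = 0.76) were not called. Among the called genes most spread within LEP-ICVN were the chemokine Ccl4 (2.17, adjusted p = 0.0024) and the ubiquitin-like protein Ubd (2.15, adjusted p = 0.0012). Of 16 cell cycle genes, 3 were higher and 0 lower. Ccnd1, the cyclin that opens the cycle, was at 12.81, 13.86, 13.03 and 13.34 against 10.23, 12.04, 10.05 and 11.28 (log2 change 2.36, SE 0.39, adjusted p = 2.6e-04, and 0.037 on the 8 arrays). Plk1 was at 1.37 (adjusted p = 0.037) and lost its call in 5 of 8 fits that left out a mouse (1.15 without LEP_ICVN_1008), and Gadd45b, a stress gene, was at least 1.59-fold higher (adjusted p = 4.4e-04).

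**Figure D4:**
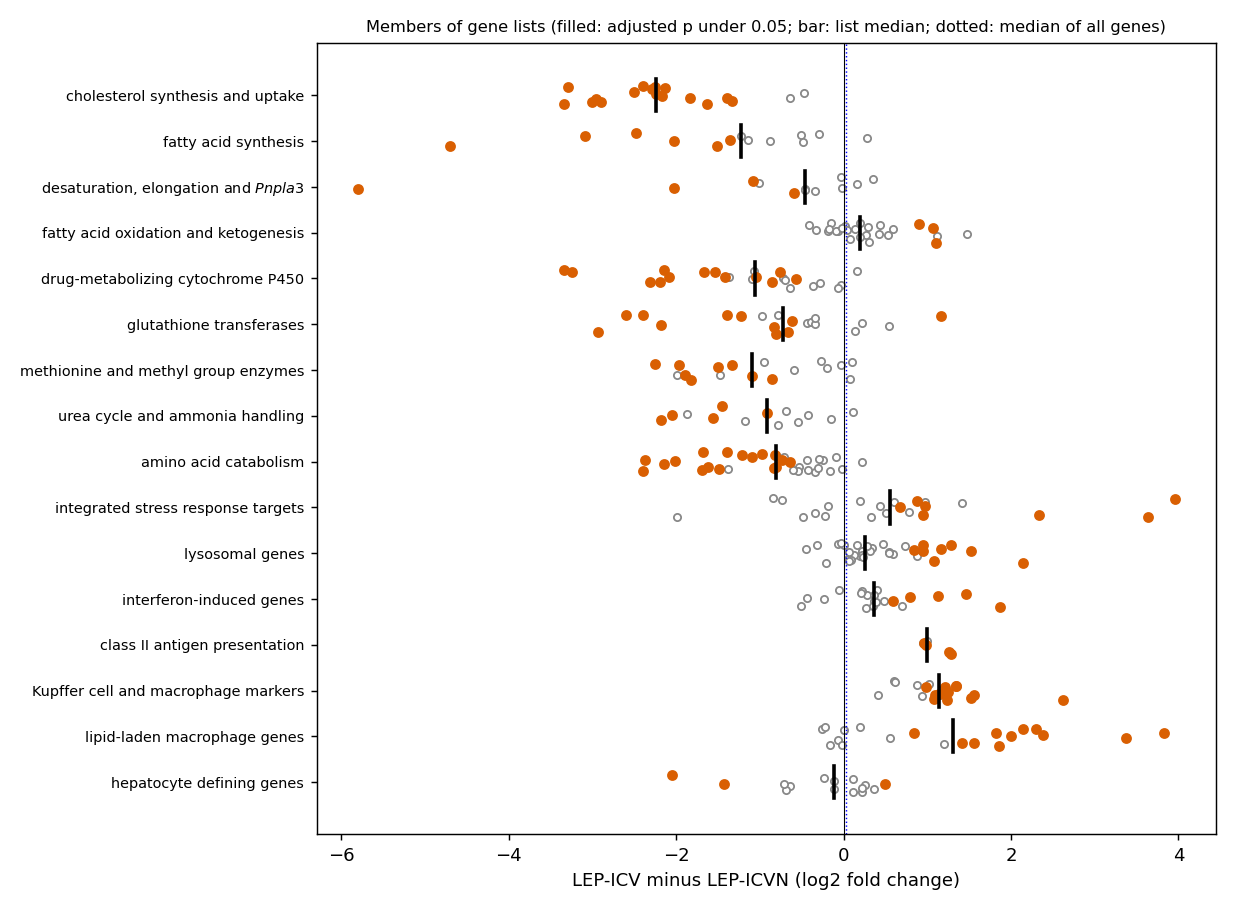
Each point is a tested gene of a list, at its log2 change in LEP-ICV against LEP-ICVN, filled where the adjusted p was under 0.05, with a bar at the list median. Cholesterol genes (median -2.24) lie to the left, the macrophage lists (1.14 and 1.31) to the right, and the median of all genes (0.03) is dotted.

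Of 24 tested drug-metabolizing cytochrome P450 genes, 13 were lower and 0 higher (median -1.06), 2 held on the 8 arrays alone (Cyp2b10 and Cyp2c39), and 5 were called without mice LEP_ICV_1014 and LEP_ICV_1019. Cyp2b10, a target of the receptor CAR, was at 4.80, 4.77, 6.42 and 6.43 in LEP-ICV and at 11.64, 6.89, 9.79 and 7.09 in LEP-ICVN (log2 change -3.25, SE 0.58, adjusted p = 6.3e-04). Its high-background LEP-ICVN mice lay above the low-background ones by over 2 log2 units. Cyp2c29 was at 9.17, 5.13, 6.63 and 7.85 against 11.48, 9.88, 10.62 and 10.15 (log2 change -3.34, SE 0.60, adjusted p = 7.1e-04, and 0.089 on the 8 arrays). Cyp2c50, Cyp2b13 and Cyp3a25 changed by -2.14, -2.20 and -2.32. Without LEP_ICV_1014 Cyp2c50 was at -1.41 and Cyp2b13, no longer called, at -1.68, and Cyp3a25 lost its call without LEP_ICVN_1001 or LEP_ICVN_1008 and was at -1.26 without LEP_ICV_1019. Cyp3a11 was at 8.69, 11.47, 14.23 and 7.13 against 13.27, 9.64, 13.36 and 8.05, so that it varied within either group by more than between them (log2 change -0.70, adjusted p = 0.73).

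Of 20 glutathione transferases, 10 were lower and 1 higher (median -0.72). Gstt3 was at 10.80, 9.42, 9.90 and 10.17 against 13.10, 12.63, 13.02 and 13.28 (log2 change -2.94, SE 0.26, adjusted p = 1.5e-07, and 0.016 on the 8 arrays), and Gstt1 changed by -1.39 (adjusted p = 3.5e-05, and 0.0498 on the 8 arrays). Gsta2 (-2.60, adjusted p = 0.0015), Gsta1 (-2.40, adjusted p = 0.0044) and Gstm3 (-2.18, adjusted p = 5.4e-04) were lower as well, and these near-identical families may share probe signal. Gstm3 changed by -4.24 on arrays with fewer and by -0.12 on arrays with more detected probes. Gstp1 was the higher gene (1.16, adjusted p = 0.025), and lost its call in 5 of 8 fits that left out a mouse (0.69 without LEP_ICV_1014). Of 17 sulfotransferases and glucuronosyltransferases, 4 were lower and 0 higher, with the estrogen sulfotransferase Sult1e1 at least 2.16-fold lower (adjusted p = 0.0014) and Ugt2a3 at -1.98 (adjusted p = 1.2e-04), and 0 of the 4 held on the 8 arrays alone.

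Among 19 genes of bile acid synthesis and steroid enzymes, 6 were lower and 1 higher (median -0.73, and -0.58 with 1 gene at its bound). Cyp17a1, a steroid 17-hydroxylase, was at 11.14, 9.36, 10.66 and 10.68 against 14.19, 12.20, 13.66 and 13.06 (log2 change -2.82, SE 0.43, adjusted p = 1.3e-04, and 0.036 on the 8 arrays). The bile acid importer Slc10a1 changed by -1.88 (adjusted p = 7.1e-04), the bile acid ligase Slc27a5 by -1.70 (adjusted p = 4.7e-04) and Hsd11b1, which regenerates glucocorticoid, by -1.46 (adjusted p = 0.0012). Cyp7a1, the rate-limiting enzyme of bile acid synthesis, was not called (-1.27, adjusted p = 0.16). Of 17 tested genes of major urinary proteins and sex-biased liver genes, 4 were lower and 1 higher. The median was -0.50, and -0.01 with 4 genes at their bounds. Hao2 and Cyp2b13 of that list are given above. Cyp2d9 (-1.54, adjusted p = 0.032) and Selenbp2 (-1.15, adjusted p = 0.012) were the other lower genes, and Mup20 was higher (1.81, adjusted p = 0.0053). Cyp2d9 lost its call in 5 of 8 fits that left out a mouse (-0.99 without LEP_ICV_1014), Selenbp2 without LEP_ICV_1014 (-0.88) or LEP_ICVN_1016, and Cyp2b13 without LEP_ICV_1014. The major urinary proteins share most of their sequence, so Mup20 is uncertain.

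Of 33 genes of amino acid catabolism, 17 were lower and 0 higher (median -0.80), and 32 of the 33 changes were negative. Of the 17, 14 were called whichever mouse was left out, 10 without mice LEP_ICV_1014 and LEP_ICV_1019, and 0 on the 8 arrays alone. Prodh, proline dehydrogenase, was at 9.79, 7.38, 8.27 and 8.34 against 11.17, 10.10, 10.82 and 11.15 (log2 change -2.37, SE 0.35, adjusted p = 1.0e-04, and 0.073 on the 8 arrays). Hal, histidase, was at 12.43, 9.27, 10.59 and 10.26 against 13.28, 13.01, 12.87 and 12.96 (log2 change -2.39, SE 0.40, adjusted p = 3.2e-04). In Prodh and Hal mouse LEP_ICV_1003 lay nearest to the LEP-ICVN mice. Afmid (-2.15, adjusted p = 1.5e-04) and Haao (-2.01, adjusted p = 0.0047) degrade tryptophan, and Hpd (-1.70, adjusted p = 0.017) degrades tyrosine. Without LEP_ICV_1014 Haao was at -1.18 and Hpd at -0.83, and Hpd was not called without LEP_ICVN_1016.

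Of 13 genes of the urea cycle and ammonia handling, 5 were lower and 0 higher (median -0.91), with 0 on the 8 arrays alone. They were Otc (-2.18, adjusted p = 0.0011), Cps1, Arg1 (-1.56, adjusted p = 2.4e-04), Ass1 (-1.45, adjusted p = 1.1e-04) and the transaminase Gpt (-0.91, adjusted p = 0.0021). Arg1 was at 13.37, 12.36, 13.25 and 12.46 against 14.14, 14.31, 14.41 and 14.80, without overlap. Glul, glutamine synthetase, was not called (0.12, adjusted p = 0.88). Of 17 genes of methionine and methyl group metabolism, 8 were lower and 0 higher (median -1.09), and none of the 17 separated the groups without overlap. Gnmt, which disposes of methyl groups, was at 10.45, 8.58, 12.54 and 10.97 against 14.91, 10.57, 14.57 and 11.49 (log2 change -2.25, SE 0.42, adjusted p = 9.0e-04, and 0.10 on the 8 arrays). Sardh (-1.97, adjusted p = 0.0021), Ahcy (-1.90, adjusted p = 7.8e-04) and Bhmt (-1.50, adjusted p = 8.9e-05) were lower too, whereas Mat1a, which makes S-adenosylmethionine in liver, was not called (-0.03, adjusted p = 0.92). Of 13 amino acid transporters 2 were higher, Slc3a2 and Slc7a5, and 3 lower, Slc38a4 (-1.19, adjusted p = 0.0057), Slc38a3 (-1.13, adjusted p = 0.029) and Slc6a12 (-0.93, adjusted p = 0.025). None of the 5 transporter calls held on the 8 arrays alone, and all but that of Slc38a4 were lost in 4 or 5 of the 8 fits that left out a mouse (Slc38a3 -0.75 without LEP_ICV_1019 and Slc6a12 -0.62 without LEP_ICV_1014).

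In the growth hormone axis, 4 of 16 tested genes were higher and 1 lower (median 0.20). Beside Igfbp2 and Igfbp1, Egfr was higher at 12.83, 11.37, 12.58 and 12.73 against 9.54, 10.98, 10.50 and 11.07 (log2 change 1.86, SE 0.36, adjusted p = 0.0012, and 0.096 on the 8 arrays), and Cish, an inhibitor of cytokine receptor signalling, by 1.67 (adjusted p = 0.037), a call lost in 5 of 8 fits that left out a mouse (1.39 without LEP_ICV_1019). The growth hormone receptor Ghr was lower at 12.65, 11.99, 12.76 and 12.29 against 13.53, 13.08, 13.61 and 13.09, without overlap (log2 change -0.90, SE 0.17, adjusted p = 8.8e-04). Igf1 (-0.41, adjusted p = 0.31) and Socs3 (0.58, adjusted p = 0.33) were not called. Of 23 carbonic anhydrases, Nrf2 targets and peroxide-removing genes, 3 were higher and 2 lower, with Car3 at 7.57, 4.75, 9.64 and 4.74 against 11.67, 9.04, 11.82 and 7.94 (log2 change -3.44, SE 0.90, adjusted p = 0.013, and 0.18 on the 8 arrays) and Car14 at -2.44 (adjusted p = 2.0e-04). Car3 lost its call without LEP_ICV_1014, LEP_ICV_1019 (-2.24) or LEP_ICVN_1001, and 0 of the 5 calls held on the 8 arrays alone.

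The remaining lists held few calls. Among 12 tested mitochondrial carriers of the Slc25 family 1 was higher, the pyrimidine carrier Slc25a33 (1.73, adjusted p = 0.0076), and 2 lower, Slc25a1 and the dicarboxylate carrier Slc25a10 (-1.50, adjusted p = 0.0013). Of 29 complement and coagulation genes 1 was higher and 3 lower, with Masp1 at -1.25 (adjusted p = 9.4e-05), and of 19 apolipoprotein and lipoprotein genes 2 were lower, Pltp (-1.44, adjusted p = 0.019, lost in 3 of 8 fits that left out a mouse, -1.23 without LEP_ICV_1003) and Apoc3 (-0.66, adjusted p = 0.0014). Of 20 genes of the tricarboxylic acid cycle 2 were lower, of 20 autophagy genes 2 were lower and of 28 proteasome subunits 2 were higher. Beside these counts, 7.72% of all genes tested were called higher and 4.94% lower. Of 14 clock genes, 4 red blood cell genes and 3 pancreatic acinar genes, 0 were called. On the 8 arrays alone none of the calls of these lists held.

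Where each mouse lay between the groups was described over the genes called without it, with 0 set at the LEP-ICVN mean and 1 at the LEP-ICV mean. The gene set thus differed between mice, with 1218 genes for mouse LEP_ICV_1003 and 960 for mouse LEP_ICVN_1004. Genes chosen on the remaining mice favour wide gaps between those, so a left-out mouse can fall short of its group by selection alone. The median position was 0.416, 0.919, 0.593 and 0.730 for mice LEP_ICV_1003, LEP_ICV_1014, LEP_ICV_1017 and LEP_ICV_1019. It was -0.0875, 0.348, 0.0901 and -0.0215 for mice LEP_ICVN_1001, LEP_ICVN_1004, LEP_ICVN_1008 and LEP_ICVN_1016. mouse LEP_ICVN_1004 thus lay close to mouse LEP_ICV_1003 on this measure, and the other LEP-ICVN mice lay near 0. Without a block their order turned, with 0.409 for mouse LEP_ICV_1003 and 0.434 for mouse LEP_ICVN_1004. Scd1 still separated the pair, at 10.46 in mouse LEP_ICV_1003 and 15.77 in mouse LEP_ICVN_1004. In mouse LEP_ICV_1019 the higher genes were at 0.948 and the lower genes at 0.446, and in mouse LEP_ICV_1017 at 0.534 and 0.724.

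The VEH-ICV mice lay between -0.0451 and 0.0555 over all the called genes, with those genes chosen on both leptin groups and none on VEH-ICV. They were all low-background arrays, so their positions rest on the class term of the fit. Only the LEP-ICV and LEP-ICVN arrays set that term.

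**Figure D5:**
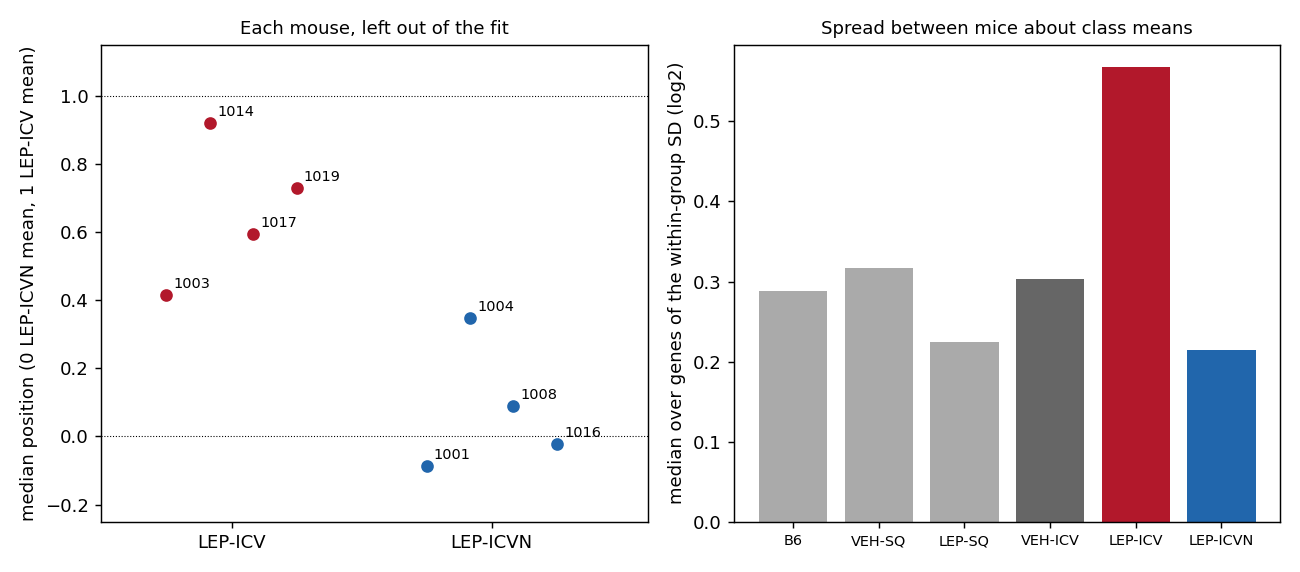
Left, median position of each mouse over the genes called without it (0 is the LEP-ICVN mean and 1 the LEP-ICV mean). Right, median over genes of the standard deviation between mice about background class means. Mice LEP_ICV_1003 (0.416) and LEP_ICVN_1004 (0.348) lie closest across the groups, and LEP-ICV has the widest spread at 0.568.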

How the data were processed

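Liver RNA of 26 mice was hybridized to Illumina MouseRef-8 v2.0 BeadChips, 1 array per mouse. The authors read the arrays with BeadStudio 2.0 and deposited intensities without normalization for 25697 probes. With each they deposited a detection score, a fraction from 0 to 1 that is 1 minus the detection p. They also deposited log2 values that were variance-stabilized and spline-normalized with lumi.

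Here neqc of limma 3.58.1 (R 4.3.3, offset 16) corrected the intensities for background and set arrays to common quantiles. Probes with a detection p under 0.01 on at least 4 arrays were tested (11001 probes, 662 of them without a name). The platform annotation gave 23978 probes 1 symbol, 0 several and 1719 none, and 23962 matched RefSeq. The brightest tested probe stood for a gene. limma fitted 6 group means and background class, the median intensity of probes with a score between 0.4 and 0.6, divided at 140. Adjusted p-values follow Benjamini-Hochberg over 7953 genes, and p-values measure the spread between single mice. Precision is limited by the number of arrays. The fits were tested on simulated data in which each gene had the same spread in every group. That simulation therefore did not cover the wider spread within LEP-ICV.

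Named were Scd1, Igfbp2 and Hamp2, the 12 largest increases and 12 largest decreases without overlap and of one sign in both background classes, up to 5 called genes of each list by size with its defining members and paralogs, and the 6 called genes most spread in LEP-ICVN. The defining members and paralogs were picked after values were seen. Of 44 lists, 42 had at least 3 tested genes. The members and lists were chosen with earlier results of these data known. Alternatives covered the block, the arrays in the fit, background correction, normalization, probe filter, probe choice, array weights and leaving out each mouse.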

Additional observations from a re-analysis of the deposited data

Results flagged for a closer look

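In 378 groups of 4 mice (189 named genes in LEP-ICV and in LEP-ICVN) a single mouse stood apart from the other three by Dixon's ratio in 13 cases, and chance alone marks about 1 in 20 groups. In LEP-ICVN, mouse LEP_ICVN_1004 stood apart for Hamp2 at 13.83 (others 15.13 to 15.24), for G6pc at 11.47 (others 12.91 to 13.09) and for Gadd45b at 6.25 (others 5.17 to 5.28). Mouse LEP_ICVN_1001 did so for Cyp2c50 at 14.31 (others 14.06 to 14.08) and mouse LEP_ICVN_1016 for Haao at 14.75 (others 14.13 to 14.22).

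In LEP-ICV, mouse LEP_ICV_1003 stood apart for Thrsp at 7.55 (others 5.34 to 5.55) and Saa2 at 8.08 (others 5.66 to 5.97). Mouse LEP_ICV_1014 did so for Egfr at 11.37 (others 12.58 to 12.83) and Hsd11b1 at 11.71 (others 13.47 to 13.72). Mouse LEP_ICV_1017 did so for Gadd45b at 5.94 (others 7.29 to 7.56), Laptm5 at 12.72 (others 13.51 to 13.64) and Ugt3a1 at 12.05 (others 8.88 to 9.24), and mouse LEP_ICV_1019 for Psmd13 at 14.00 (others 12.88 to 12.97).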

How the results depend on the processing

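All called genes kept their direction in every alternative that tested them, apart from 7 on the arrays with fewer and 7 on the arrays with more detected probes. For the subsets of arrays this is largely fixed by the choice of called genes. The number of calls changed more. It was 60 (27 higher and 33 lower) on the 8 arrays alone, 63 (31 and 32) with neqc on those 8, and 347 (197 and 150) on the 8 with detected-probe class as the block. Low-background arrays alone gave 1 call (0 and 1), high-background arrays 0 (0 and 0, with 619 genes at an unadjusted p under 0.05), arrays with fewer detected probes 0 (0 and 0, with 902) and those with more 65 (18 and 47), each with 2 mice against 2. It was 602 with median scaling (170 lower, so that 71.8% of the calls were higher against 61.0%, with the median of all genes at 0.12), 534 (306 and 228) with a 2-fold change required, and 417 (203 and 214) without mice LEP_ICV_1014 and LEP_ICV_1019. Array weights gave 14 (2 and 12), but their estimation did not converge. Leaving out one mouse gave 600 to 1218 calls, 346 to 747 higher and 254 to 482 lower. The other alternatives gave 700 to 1209 calls, among them 933 when the fit and adjustment ran over all 11001 probes. The detected-probe classes, the fits without mice LEP_ICV_1014 and LEP_ICV_1019 and the fit over all probes were chosen after seeing the data.

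Scd1 was not called on high-background arrays (-6.23), with array weights (-5.48) or on arrays with fewer detected probes (-6.28). Igfbp2 lost its call on low-background (3.48) and high-background arrays (5.82), with array weights (3.68) and on arrays with fewer detected probes (3.28), and Hamp2 in the same 4 fits (-4.61, -5.18, -4.65 and -3.26). Ahsg reversed to -0.28 on arrays with fewer detected probes, and the cause was not tested. No paired analysis was possible because the replicate numbers are those of single mice and the groups share none. The arrays limit what can be seen near background, where 22 called genes were detected on no LEP-ICV array and 52 on no LEP-ICVN array.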
